A study of Bos taurus with 12 samples.

Results

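The cytosolic ribosomal protein genes were taken as all probe sets whose platform symbol begins with RPL or RPS and a digit, or is RPLP0, RPLP1, RPLP2 or RPSA, leaving out the RPS6K kinases. The rule used symbols and no measured value. It gave 98 probe sets for 69 genes, of 9155 genes named by the platform, with 60 probe sets for the large (RPL) and 38 for the small (RPS) subunit. Of the 69 symbols, 6 were set apart because they name a paralog or a protein outside the ribosome (RPL3L, RPL7L1, RPL26L1, RPS27L, RPS4Y1 and RPS19BP1), which left 40 genes of the large and 23 of the small subunit. Each gene was read from its brightest probe set (largest mean of log2 signal across the 12 arrays), and its further probe sets are described after that.

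Growth plate chondrocytes, the cells whose division and enlargement lengthen the long bones, came from the distal metacarpus of male dairy cattle under 10 months old. Both groups were released from matrix by collagenase P for 4 h and parted by density. The hypertrophic zone (HZ) group was the lightest fraction and the reserve zone (RZ) group the heaviest, so that each group is defined by density and not by a marker. Total RNA of each fraction was measured on 1 array, in 6 numbered pairs of 1 HZ and 1 RZ array; whether a pair was 1 animal is not stated, and p-values here rest on how much these 6 pairs vary, which may in part be technical.

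Ribosomal proteins assemble with ribosomal RNA in the nucleolus into a large subunit, which joins amino acids, and a small subunit, which reads the messenger RNA. The proteins are needed in equal numbers, apart from the acidic stalk proteins, and their messengers carry a pyrimidine tract at the 5′ end through which mTOR signalling sets their translation together. The transcripts are among the most abundant of most cells. Whether their level differs between resting and enlarging chondrocytes, and alike in both subunits, is the comparison made here.

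The zone labels were compared with marker lists, which is no independent check because the lists were chosen with earlier results of these data known. Of 9 measured hypertrophic markers 5 were higher in HZ and 0 lower, including IHH and MMP13, and all 4 measured reserve zone markers (APOE, CLU, PTHLH and SFRP5) were lower. By the limma test described below, 4.17% of the 9155 named genes were higher in HZ and 3.56% lower. Of 6 general chondrocyte markers 0 passed, too few genes to tell from that share. Some markers of other cells passed as well. Of 11 leukocyte markers 4 were higher (C1QA, C1QB, C1QC and CSF1R) and 3 lower (CD2, NKG7 and PTPRC) in HZ. Of 4 osteoblast and osteoclast markers 2 passed as higher (ACP5 and CTSK) and 0 as lower in HZ, while the other 2 had log2 ratios below 0. Without adjustment 3 of the 4 had a p under 0.05 (limma). PECAM1 was the 1 of 6 endothelial markers that was lower, again too few to tell from the share. The leukocyte markers summed to a signal of 1538 to 2809 on HZ arrays and 1309 to 3089 on RZ arrays, and 5 erythroid markers to 35.3 to 133 and 75.5 to 186. In such mixed fractions, less RNA per cell and fewer cells of a type cannot be told apart, and the part of other cells in the values below was not tested.

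No ribosomal protein probe set passed the test between the zones. In limma with the pair as a block and Benjamini-Hochberg adjustment over all 24016 probe sets, 0 of the 98 were higher and 0 lower in HZ at an adjusted p under 0.05, while 6.22% of all probe sets passed, 3.26% higher and 2.96% lower. Read as genes, 0 of 69 passed, beside 7.73% of the 9155 named genes, 4.17% higher and 3.56% lower. Without adjustment, 2 of the 98 probe sets had a p under 0.05, beside 22.2% of all probe sets. Only 1 of the 98 had the same sign in all 6 pairs, beside 14.0% of all, and the signals of HZ and RZ arrays overlapped in every one of the 98, while in 2.89% of all probe sets they did not. The lowest adjusted p among the 98 was 0.176. Within several pairs most ribosomal protein genes moved together, as given below, so these counts are not 98 separate findings of no change.

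Most members were bright: 64 of the 98 probe sets had a mean log2 signal over 12 (a signal of 4096). Of the 467 other probe sets over the same limit, 38 passed (8.14%). These other bright probe sets were not matched to the members in brightness beyond that limit. The standard error had a median of 0.17 on the log2 scale in each subunit and 0.18 over all probe sets. The 95% intervals of the 63 genes ran from -0.47 at the lowest bound to 0.81 at the highest, all lay within a 2-fold change, and 53 lay within a 1.5-fold change in either direction.

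The fitted differences of both subunits were small, and the difference between subunits was not tested. The median log2 ratio of HZ over RZ was 0.10 over the 40 large subunit genes (interquartile range 0.04 to 0.16) and 0.11 over the 23 small subunit genes (0.01 to 0.14), a difference between subunits of -0.01, beside -0.01 for the median of all probe sets. Genes of the ribosome were also close to one another: the middle of the 63 values spanned 0.02 to 0.15 (interquartile range), against -0.22 to 0.17 for the 467 other bright probe sets. The ratio was above 0 in 34 of 40 large and 19 of 23 small subunit genes, together 84.1%, beside 48.8% of all probe sets and 50.7% of the other bright ones. This direction depended on the scaling and on the pairs. After quantile normalization the medians were -0.002 and -0.006 and 29 of the 63 genes were above 0. That scaling gives every array the same distribution of values. As 60 of the 63 genes had a mean log2 signal over 12, it can take out a shift that bright genes share. Its medians thus cannot tell whether the genes shifted together. Without pair 3 the medians were 0.008 and 0.008 and 34 genes were above 0. The medians were 0.15 and 0.15 without pair 2, 0.04 and 0.01 without pair 5 (40 genes above 0) and 0.20 and 0.21 without pair 6 (62 genes above 0). Within pairs 1 and 2 the medians were -0.03 and -0.01, and within pairs 3 to 6 they were 0.17 and 0.16.

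**Figure D1:**
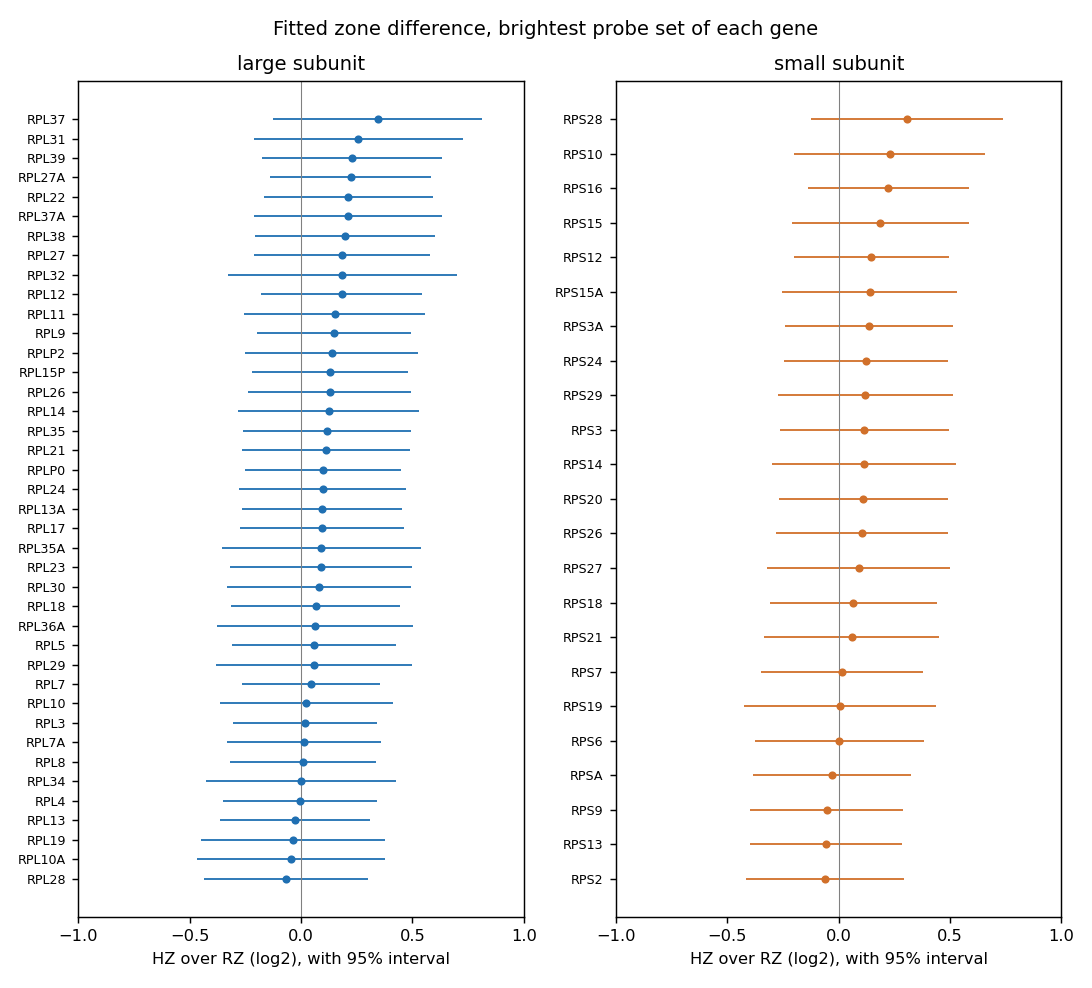
Fitted log2 ratio of HZ over RZ for the brightest probe set of each of 40 large and 23 small subunit genes (points), with 95% intervals from limma with the pair as a block (bars, 6 pairs). All 63 intervals cross 0 and stay between -0.47 and 0.81, from RPL28 at -0.07 to RPL37 at 0.34 in the large subunit and from RPS2 at -0.06 to RPS28 at 0.31 in the small.

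In the large subunit, the stalk that recruits elongation factors was represented by RPLP0, its base, and by RPLP2. RPLP1 is not analysed here. The RPLP0 signal had a lowest value of 14875, a median of 18376 and a highest of 24262 on the HZ arrays, and 14162, 16229 and 22674 on the RZ arrays. The ranges of the zones overlapped nearly throughout. The RPLP0 log2 ratio was 0.10 ± 0.16 (SE, 6 pairs), with an adjusted p of 0.776 from limma. A second bright RPLP0 probe set gave 0.06 ± 0.16. For RPLP2 the signal was 9597 at the lowest, 13067 at the median and 16771 at the highest in HZ, and 10395, 10822 and 14628 in RZ. Its log2 ratio was 0.14 ± 0.17, higher in HZ in 4 of 6 pairs.

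The highest log2 ratios of the large subunit were those of RPL37, RPL31, RPL39, RPL27A and RPL22. RPL39 and RPL31 lie at the tunnel through which the new chain leaves. RPL31 signals had a lowest, median and highest value of 6379, 9091 and 10930 in HZ and 5011, 7472 and 9737 in RZ. Most of the HZ range lay inside the RZ range. The RPL31 log2 ratio was 0.26 ± 0.21, with an adjusted p of 0.534 (limma), and ran from -0.29 in pair 6 to 1.12 in pair 3. RPL39 read 10894, 14063 and 17303 in HZ and 9762, 11451 and 15623 in RZ, with overlapping zones and a log2 ratio of 0.23 ± 0.18. RPL27A and RPL22 had log2 ratios of 0.22 ± 0.16 and 0.21 ± 0.17. Without pair 3 the ratios of RPL31, RPL39, RPL27A and RPL22 were 0.083, 0.12, 0.12 and 0.10. RPL37 was read from a dim probe set, with signals of 89.2, 126 and 237 in HZ and 65.5, 107 and 140 in RZ (lowest, median, highest). Its ratio of 0.34 ± 0.21 (adjusted p of 0.385 from limma), or 0.18 without pair 6, thus came from 1 of the 3 genes of 63 whose brightest probe set had a mean log2 signal of 12 or less, with RPS19 and RPS28.

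At the other end of the large subunit stood RPL28, RPL10A, RPL19, RPL13 and RPL4, whose loop lines the exit tunnel. RPL28 read 7191, 9991 and 11641 in HZ and 8462, 9777 and 14060 in RZ, and its zones overlapped. Its log2 ratio was -0.07 ± 0.16, with an adjusted p of 0.863 (limma). The ratios of RPL10A, RPL19 and RPL13 were -0.05 ± 0.19, -0.04 ± 0.18 and -0.03 ± 0.15. RPL4 had a ratio of -0.005 ± 0.15, with signals of 10701, 11413 and 13256 in HZ inside the RZ range of 9495 to 14845. Among genes of the large subunit chosen for their brightness, RPL9 had a log2 ratio of 0.15 ± 0.16, RPL11 0.15 ± 0.18, RPL35 0.12 ± 0.17 and RPL7 0.04 ± 0.14. RPL11, which with RPL5 and 5S RNA can bind MDM2 outside the ribosome, read 13853, 17415 and 25268 in HZ and 12852, 15191 and 22194 in RZ.

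In the small subunit, RPS28, which sits where the messenger leaves the subunit, had the highest ratio. RPS28 signals were 1796, 1952 and 3629 in HZ and 1434, 1734 and 2215 in RZ. The HZ values reached higher, but the ranges overlapped. The RPS28 log2 ratio was 0.31 ± 0.19, with an adjusted p of 0.397 from limma, and pair 3 alone gave 1.05. Next came RPS10 at 0.23 ± 0.19, RPS16 at 0.22 ± 0.16, RPS15 at 0.19 ± 0.18 and RPS12 at 0.15 ± 0.16. Without pair 3 the ratios of RPS28, RPS10, RPS16, RPS15 and RPS12 were 0.16, 0.10, 0.13, 0.082 and 0.050. RPS10 read 11152, 14350 and 17661 in HZ and 9424, 11853 and 15685 in RZ, again with overlapping zones.

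The lowest ratios of the small subunit were those of RPS2, at the entry of the messenger channel, RPS13, RPS9, RPSA, which also has a role as a laminin receptor precursor, and RPS6, the substrate of the S6 kinases. RPS2 read 14197, 16985 and 20096 in HZ, inside the RZ range of 13402 to 23364 with a median of 16714. Its log2 ratio was -0.06 ± 0.16, with an adjusted p of 0.873 (limma). RPS13, RPS9 and RPSA had ratios of -0.06 ± 0.15, -0.05 ± 0.15 and -0.03 ± 0.16. RPS6 had a mean signal of 16804 ± 3637 on the HZ arrays and 16750 ± 3466 on the RZ arrays (SD, n = 6), and a log2 ratio of 0.003 ± 0.17. The bright genes RPS3A and RPS18 had ratios of 0.13 ± 0.17 and 0.07 ± 0.17. RPS19, the gene most often mutated in Diamond-Blackfan anaemia, was read from a dim probe set, with signals of 46.4, 97.6 and 143 in HZ and 58.6, 82.7 and 137 in RZ and a log2 ratio of 0.006 ± 0.19.

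The difference between zones varied far more between pairs than between genes. The median over large subunit genes of HZ minus RZ (log2 signal) was 0.05, -0.13, 0.60, 0.06, 0.46 and -0.40 in pairs 1 to 6. The small subunit followed at 0.09, -0.12, 0.61, 0.02, 0.45 and -0.41. Pairs 3 and 5 were thus higher in HZ and pair 6 lower, in both subunits by almost the same amount. Each of these values rests on 1 array per zone and on its scaling. The standard deviation over the 6 pairs was 0.37 in each subunit, while that of the large minus small difference was 0.03. Of the 63 genes, 38, 8, 62, 39, 63 and 2 were higher in HZ in pairs 1 to 6.

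In pairs 2, 3, 5 and 6 most genes of the ribosome had the sign of their pair's median, while pairs 1 and 4, with medians close to 0, were split at 38 higher and 25 lower and at 39 higher and 24 lower. In pair 3, RPL28 at -0.09 was the 1 gene that was lower in HZ, against 1.12 for RPL31 and 1.05 for both RPL32 and RPS28. In pair 5 the values ran from 0.08 for RPL37 to 0.70 for RPL31. In pair 6 the 2 genes higher in HZ were RPL37 at 1.17 and RPS19 at 0.05, both read from dim probe sets, and RPL10A at -0.70 was the lowest. RPL37 also had the highest value in pair 2, at 0.90. The middle of the genes (interquartile range) spanned 0.46 to 0.71 in pair 3, 0.36 to 0.52 in pair 5 and -0.50 to -0.31 in pair 6.

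**Figure D2:**
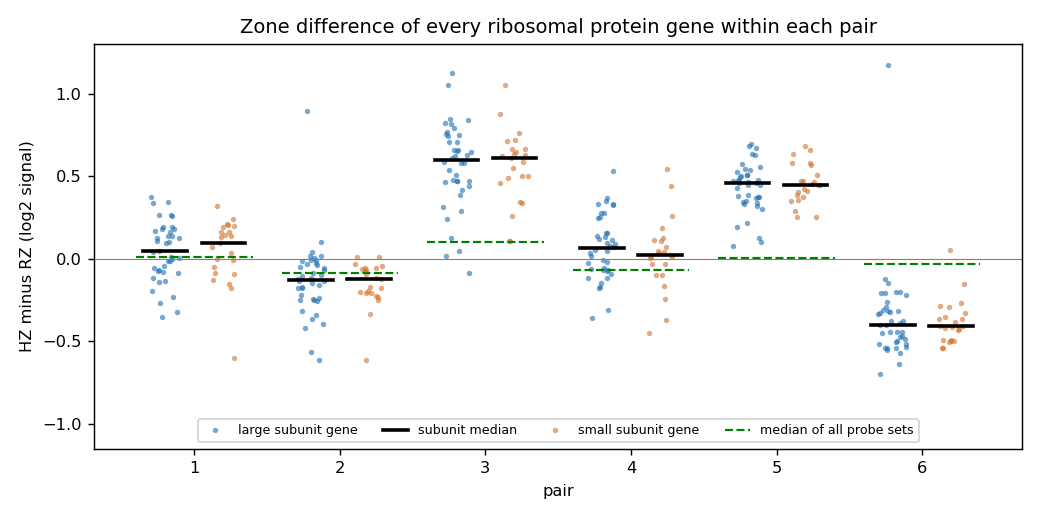
HZ minus RZ difference in log2 signal of each ribosomal protein gene (points, 40 large and 23 small subunit genes) within pairs 1 to 6, with the subunit medians as black lines and the median of all 24016 probe sets as dashed lines. The medians lie near 0.6 in pair 3 and below 0 in pairs 2 and 6, the 2 subunits lie side by side in every pair, and RPL37 is the point near 1.17 in pair 6.

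The other bright probe sets had a median HZ minus RZ of 0.03, -0.13, 0.44, -0.23, 0.11 and -0.20 in pairs 1 to 6. This was nearer to 0 than the subunit medians in pairs 1, 3, 5 and 6, about equal in pair 2 and opposite in sign in pair 4. The median of all probe sets was 0.01, -0.08, 0.10, -0.07, 0.003 and -0.03. The share of ribosomal protein genes higher in HZ was 98.4% in pair 3 and 100% in pair 5, beside 84.8% and 59.5% of the other bright probe sets and 57.7% and 50.3% of all. In pair 6 it was 3.17%, beside 25.7% and 47.3%. After quantile normalization the pair medians ran from -0.15 to 0.18 in the large subunit and from -0.15 to 0.12 in the small, a narrower range, although those of pairs 1 and 4 lay farther from 0 than before. By that scaling 9, 14, 47, 45, 50 and 10 of the 63 genes were higher in HZ in pairs 1 to 6, and the medians of pair 1 turned negative. Because quantile normalization can take out a shift shared by bright genes, the narrower range does not show that the pairs differed less.

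On single arrays, the median deviation of the 63 genes from their means over the 12 arrays (log2 signal) was -0.06, -0.28, 0.39, 0.30, 0.13 and -0.13 on HZ arrays 1 to 6. On RZ arrays 1 to 6 it was -0.14, -0.14, -0.19, 0.24, -0.30 and 0.28. High and low arrays occurred in both zones. The large subunit averaged 0.06 ± 0.26 in HZ and -0.04 ± 0.23 in RZ, and the small subunit 0.05 ± 0.28 and -0.05 ± 0.27 (SD, n = 6), so the zone means differed by less than the spread between arrays of 1 zone.

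**Figure D3:**
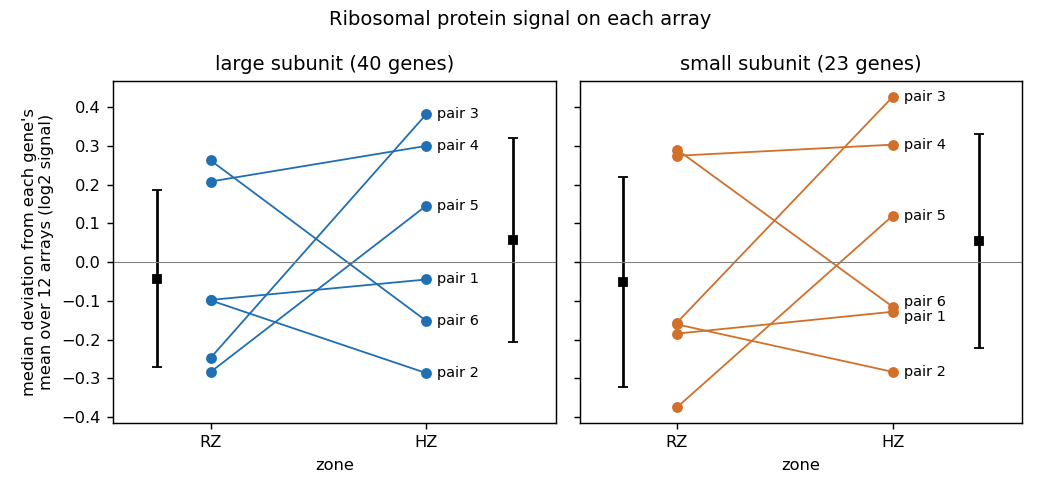
Median deviation of large (left) and small (right) subunit genes from each gene's mean over the 12 arrays, in log2 signal, on each RZ and HZ array (points, lines join the arrays of a pair), with the mean and SD of 6 arrays as squares and bars. Lines rise steeply in pairs 3 and 5 and fall in pair 6, and the bars of the zones overlap widely.

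The ratio of 3′ to 5′ control probe sets, a sign of how far labelled RNA reaches toward the 5′ end, also varied by pair. Its mean log2 value on HZ and RZ arrays was 3.03 ± 0.69 and 2.34 ± 0.45 for actin (SD, n = 6). It was 0.52 ± 0.65 and 0.10 ± 0.28 for GAPDH, and -2.50 ± 0.39 and -2.26 ± 0.30 for EF1A. The EF1A 3′ probe set was thus dimmer than its 5′ one, so its ratio is no plain measure of that reach. The difference between these zone means was not tested. For GAPDH, HZ minus RZ of its log2 ratio was 0.11, 0.18, 1.27, 0.87, 0.31 and -0.26 in pairs 1 to 6, and for actin it was 1.55, -0.04, 0.65, 1.32, 0.61 and 0.09. For EF1A it was -0.41, -0.37, 0.84, -0.11, -1.04 and -0.32. Pair 3 was the highest of the 6 for GAPDH and EF1A, as for both subunits, while pair 5, also high for both subunits, was the lowest of the 6 for EF1A. Their part in the ribosomal protein values was not tested. Without pairs 3 and 4 the subunit medians of HZ over RZ were 0.009 and 0.002 and 33 of 63 genes were above 0.

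Pairs 1 and 2 differed from pairs 3 to 6 in the fine step of the deposited values, so the zone difference was compared between these sets of pairs by an interaction term in limma. Among the 98 probe sets, 4 had an unadjusted p under 0.05, close to the 5.02% of all probe sets, and 0 passed after adjustment over all probe sets, beside 0.00833% of all (lowest adjusted p of a member 0.872). These 4, named after their values were seen, were RPS19 and dim further probe sets of RPL19, RPL32 and RPLP0.

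Further probe sets of the same genes were mostly dim. Of the 69 genes 19 had more than 1, which gave 29 further probe sets, 3 of them with a mean log2 signal over 12. Their log2 ratios ran from -0.55 to 0.47 with a median of -0.09, lower than that of the brightest probe sets. Within a gene the widest gap was 0.70, in RPS12. The RPS12 probe set at the low end was the 1 member with the same sign in all pairs and is named after its value was seen: it read 67.4, 149 and 193 in HZ and 126, 204 and 277 in RZ. Its log2 ratio was -0.55 ± 0.22, lower in HZ in 6 of 6 pairs, with an adjusted p of 0.176 (limma). The bright RPS12 probe set, 0.15 ± 0.16, had the opposite sign.

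RPL15P is a pseudogene entry in RefSeq, and its probe sets cannot be told apart here from RPL15, which is not analysed here under its own symbol. Its brightest probe set had a log2 ratio of 0.13 ± 0.16. A dim probe set of the same symbol read 368, 571 and 808 in HZ and 551, 738 and 898 in RZ, with a ratio of -0.44 ± 0.18 and an adjusted p of 0.195 (limma). Without pair 3 its adjusted p was 0.0431, which made it the 1 member of 98 to pass in any alternative, beside 6.41% of all probe sets without that pair. It is named after its values were seen.

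The genes set apart also gave 0 calls. RPS19BP1, a partner of RPS19 that is not a ribosomal protein, had the lowest ratio of all brightest probe sets: it read 434, 499 and 691 in HZ and 479, 619 and 899 in RZ, with a log2 ratio of -0.28 ± 0.15 and an adjusted p of 0.322 (limma). Its ranges overlapped, and it was higher in HZ in 1 of 6 pairs. RPL7L1, which acts in assembly of the large subunit, had a ratio of -0.13 ± 0.16, and its dimmer probe sets -0.29 and -0.43. RPL26L1 and RPS27L had ratios of 0.25 ± 0.18 and 0.14 ± 0.17. RPL3L, a form known from striated muscle, was dim in both zones, with mean signals of 48.0 ± 18.0 and 49.1 ± 19.2 (SD, n = 6) and a ratio of -0.01 ± 0.20. The symbol RPS4Y1 shares the older name RPS4 with RPS4X, and which copy was read cannot be told apart; its ratio was 0.03 ± 0.16.

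Other components and factors of translation were read from lists of the same pathway. FAU, which encodes RPS30 joined to a ubiquitin-like protein, and RACK1 of the small subunit had log2 ratios of -0.10 ± 0.16 and -0.01 ± 0.15. Of 33 initiation factor genes 0 passed (median ratio -0.09), and of 11 elongation and release factor genes 0 passed (median 0.003). Of 14 other transcripts with a 5′ terminal pyrimidine tract 0 passed (median -0.03). Among these, TPT1 read 17908 ± 1947 on HZ and 14096 ± 3013 on RZ arrays (SD, n = 6), with a ratio of 0.37 ± 0.16, higher in 6 of 6 pairs and an adjusted p of 0.203 (limma). EEF1A1, the elongation factor that brings aminoacyl-tRNA, had a ratio of 0.13 ± 0.16. Of 18 genes of mTOR signalling and the S6 kinases 0 passed (median -0.11). Over all named genes 7.73% passed, so 0 calls in lists of this size do not show that their genes were unchanged. Without adjustment, a p under 0.05 (limma) was found in 7 of the 33 initiation and 0 of the 11 elongation and release factor genes. It was found in 1 of the 14 other pyrimidine tract and 4 of the 18 mTOR and S6 kinase genes, beside 22.2% of all probe sets.

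Genes that build the ribosome passed at a share near that of all named genes. Of 62 nucleolar processing and assembly factors 4 fell (6.45%, beside 3.56% of named genes) and 0 rose. In either direction 7.73% of named genes passed. Without adjustment 14 of the 62 had a p under 0.05 (limma), beside 22.2% of all probe sets. The median ratio was -0.22 and 54 of 62 were below 0, while 48.8% of all probe sets were above 0. The 4 that fell were RRP1 (-0.78 ± 0.15), NAT10 (-0.61 ± 0.15), LTV1 (-0.60 ± 0.15) and TBL3 (-0.59 ± 0.15). All 4 were lower in 6 of 6 pairs, with adjusted p of 0.0172, 0.0430, 0.0447 and 0.0481 from limma. RRP1, an rRNA processing factor, read 331 ± 74.1 on HZ and 584 ± 166 on RZ arrays (SD, n = 6), and LTV1, a small subunit assembly factor, 1553 ± 293 and 2367 ± 408. Of 14 RNA polymerase I genes 1 fell (7.14%, beside 3.56% of named genes) and 0 rose. The gene that fell was POLR1H, at 1892 ± 272 in HZ against 2899 ± 412 in RZ. Its ratio was -0.61 ± 0.15, with an adjusted p of 0.0420 (limma). FBL, the rRNA methylase, and NCL had ratios of -0.33 ± 0.16 and -0.20 ± 0.16 that did not pass. The calls were near the threshold: of 18 alternatives, RRP1 lost its call in 6, POLR1H in 10, NAT10 in 11, LTV1 in 12 and TBL3 in 14, and none of the 5 turned sign in any. Leaving out pair 4 or pair 6 lost all 5, leaving out pair 1, 2 or 5 lost all but RRP1, and leaving out pair 3 lost TBL3. Read as means over a gene's probe sets, LTV1 and TBL3 lost their calls, while RRP1, NAT10 and POLR1H kept them. Without the pair as a block NAT10, LTV1 and TBL3 had adjusted p of 0.429, 0.0664 and 0.263 (limma). The difference between the assembly factors and the ribosomal proteins was not tested.

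Mitochondrial ribosomal proteins, which build the separate ribosome of mitochondria, were taken as a comparison set of 68 genes. Of these 2 rose in HZ (2.94%, beside 4.17% of named genes) and 0 fell, and the median ratio was 0.02. MRPL14 read 389 ± 94.4 on HZ and 195 ± 35.1 on RZ arrays (SD, n = 6), a log2 ratio of 0.92 ± 0.18 with an adjusted p of 0.0175 (limma). MRPL34 read 339 ± 90.7 and 175 ± 26.3, a ratio of 0.87 ± 0.18 with an adjusted p of 0.0223 (limma). Both were higher in HZ in 6 of 6 pairs. Of 18 alternatives, each lost its call in 8, including without pair 4 and without pair 5 for both, and neither turned sign. MRPL34 also lost its call without pair 1, and MRPL14 when read as the mean over its gene's probe sets. By pair the median over the mitochondrial set was 0.14, -0.24, 0.24, 0.15, 0.17 and -0.07, a narrower range than that of the cytosolic subunits.

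**Figure D4:**
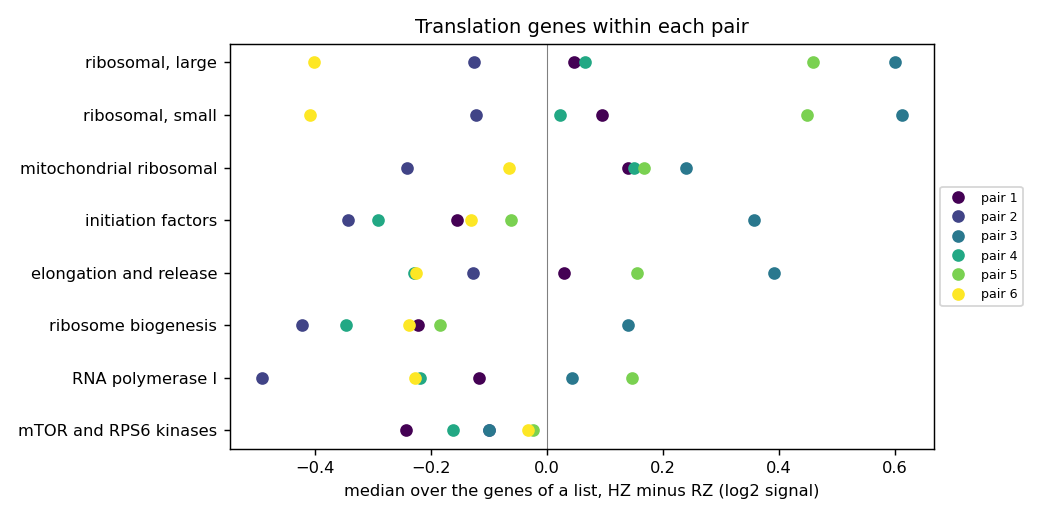
Median HZ minus RZ difference in log2 signal over the genes of each list within each of the 6 pairs (1 point per pair), for the large and small cytosolic subunits and for other translation lists. The cytosolic subunits run from about -0.4 in pair 6 to 0.6 in pair 3, while the assembly factors lie below 0 in 5 of the 6 pairs and the mTOR and S6 kinase genes in all 6.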

How the data were processed

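Expression was measured on 12 one-colour arrays of biotin-labelled cRNA (MessageAmp II-Biotin, RNA from RNA STAT-60, per the labels' protocols). The deposited values are linear ratios, read from the values as the signal on an array over the median of that probe set, or over a fixed divisor for 2227 dim probe sets. How images were scanned, probes summarised and arrays scaled the labels do not say. The planned tests assumed a signal, so signals were recovered from the whole-number steps of each array's ratios (24127 of 24128 probe sets, within 0.0480 of a step, and all 1500 simulated probe sets right). The signal unit assumes 0.1 per step, which no source states. Array medians were 96.6 to 96.7, no further normalization was made, and correlations between arrays were 0.911 to 0.971.

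The zones were compared on log2(signal + 16) by limma's lmFit and eBayes (version 3.58.1, R 4.3.3; pair as a fixed block, 5 residual degrees of freedom), tested on simulated data, with Benjamini-Hochberg adjustment over 24016 probe sets, leaving out 112 controls, at 0.05. The titles number the arrays and the series design describes pairs. Deviations of same-numbered arrays from their zone means correlated at 0.124 to 0.447 over probe sets in all 6 pairs. Arrays of different numbers were not compared, so these values cannot tell pairing from other traits that arrays share. Platform symbols were used; all 98 members matched RefSeq (ARS-UCD2.0) by Entrez identifier, with 0 symbols changed. Of all probe sets, 86 with several symbols and 10638 with none stayed unnamed.

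Medians over genes are descriptions. Named were, per subunit, the 5 highest and 5 lowest ratios and the 5 brightest genes, with paralogs, stalk proteins, RPSA, RACK1 and FAU, genes with any probe set past the threshold or with probe sets 1 or more apart, and members past the threshold of other lists (at most 6 each). Members and lists were chosen with earlier results of these data known. Exceptions are marked where they occur; FBL, NCL, TPT1, EEF1A1 and the genes of single pairs were also named after their values were seen. Alternatives changed the constant, normalization, block, pairs, probe sets and prior. The number of arrays limits the precision.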

Additional observations from a re-analysis of the deposited data

How the results depend on the processing

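The count of ribosomal protein probe sets that passed was 0 in every alternative except without pair 3, so leaving out each pair gave 0 to 1; the count of genes was 0 in all. Without the replicate block 0 members passed as well (lowest adjusted p 0.266), and 831 of all probe sets did instead of 1494. That total was 583 with 1 added, 478 on the deposited ratio, 2408 of 12008 brighter probe sets, 336 in pairs 3 to 6, 0 in pairs 1 and 2, 139 without pairs 3 and 4, and 625, 632, 557 and 814 without pairs 1, 4, 5 and 6. It was 1056 without pair 2 and 1540 without pair 3. With 64 added it was 2137, with an intensity trend in the prior variance 2063, after quantile normalization 1668 and after median centring 1492. Leaving out each pair gave medians of 0.008 to 0.20 (large) and 0.008 to 0.21 (small) and a large minus small difference of -0.012 to 0.028, highest without pair 5.

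Of 34 named ribosomal protein genes 21 turned sign in 56 of 611 alternatives, with 0 calls. After quantile normalization the log2 ratios were RPL7 -0.11, RPLP0 -0.027, RPS18 -0.079, RPS4Y1 -0.10, RPS6 -0.15. In pairs 1 and 2 alone they were RPL22 -0.056, RPL26L1 -0.083, RPL31 -0.16, RPL3L 0.21, RPLP2 -0.027, RPS18 -0.027, RPS2 0.020, RPS27L -0.099, RPS4Y1 -0.096, RPS6 -0.16. In pairs 3 to 6 alone they were RACK1 0.078, RPL10A 0.050, RPL13 0.042, RPL19 0.18, RPL4 0.026, RPS13 0.037, RPS9 0.026. Without pairs 3 and 4 they were RPS18 -0.026, RPS27L -0.068, RPS4Y1 -0.033, RPS6 -0.097. As means over a gene's probe sets they were RACK1 0.063, RPL7 -0.024, RPLP0 -0.081, RPS12 -0.19, RPS4Y1 -0.23. With each pair left out in turn the ranges were FAU -0.18 to 0.0051, RACK1 -0.10 to 0.037, RPL10A -0.18 to 0.086, RPL13 -0.11 to 0.043, RPL19 -0.14 to 0.078, RPL28 -0.17 to 0.017, RPL3L -0.13 to 0.13, RPL4 -0.10 to 0.065, RPL7 -0.0097 to 0.083, RPS13 -0.12 to 0.0087, RPS18 -0.018 to 0.18, RPS2 -0.15 to 0.016, RPS4Y1 -0.072 to 0.10, RPS6 -0.097 to 0.10, RPS9 -0.15 to 0.0064, RPSA -0.10 to 0.046. For 9 genes outside the ribosomal protein symbols (RACK1, FAU and the 7 called) the alternatives were added after seeing the data; the 7 called reached adjusted p between 0.00154 and 0.445 (limma). The causes were not tested.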
